A study of Mus musculus with 45 samples.

Results

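Nuclear genes encoding the factors that transcribe and replicate mitochondrial DNA were followed through degradation of GABPA in mouse embryos and embryonic stem cells. The 10 genes were chosen by symbol, *Tfam*, *Tfb2m*, *Tfb1m*, *Polrmt*, *Tefm*, *Polg*, *Polg2*, *Twnk*, *Ssbp1* and *Mgme1*, out of 55385 genes in the deposited RNA tables, and all 10 were found and had counts enough for testing at every stage. GABPA is an ETS family transcription factor, and in all groups, controls included, both *Gabpa* alleles carried a degradation tag (*Gabpa*-dTAG/dTAG), so that the compound dTAG13 removes the protein. RNA was sequenced in 18 of the 45 samples of the series. Late two-cell (L2C) embryos received 1 µM dTAG13 or the solvent DMSO from 6 to 30 h post fertilization (hpf), with 3 libraries each. Morula embryos were treated with 1 µM from 42 hpf, with 2 libraries each. E4.5 inner cell mass (ICM), a mixture of epiblast and primitive endoderm left after the outer trophectoderm was removed by immunosurgery, came from embryos treated with 1 µM from 84 to 100 hpf, with 2 libraries each. The 2iES cells, a tagged clonal derivative of the ES-E14 line grown with MEK and GSK3 inhibitors and LIF, received 0.5 µM for 24 h, with 2 libraries each. The embryos came from in vitro fertilization with gametes of adult mice, and treatment windows differed between stages, as did the dose between embryos and 2iES cells.

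Mitochondria keep a small circular genome that encodes subunits of the respiratory chain together with the rRNAs and tRNAs needed to translate them, while every protein that copies or transcribes it is made from nuclear genes. TFAM bends and packages the DNA and, with TFB2M, brings the polymerase POLRMT to the promoters, and TEFM keeps that polymerase moving. POLG with its accessory subunit POLG2, the helicase Twinkle, encoded by *Twnk*, and the single-strand binding protein SSBP1 form the replication fork, MGME1 trims single-stranded ends, and TFB1M methylates the mitochondrial small rRNA. ETS factors bind a GGAA core, and GABPA is also known as nuclear respiratory factor 2, from early work on genes of the respiratory chain.

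The short ETS-type word CCGGAA was searched on both strands in the 250 bases before each RefSeq gene start (GRCm38.p6), and the longer word CCGGAAGT, which contains it, was counted separately. The words were chosen after the members' sequences had been seen. CCGGAA occurred before 8 of the 10 members, all but *Tfb2m* and *Mgme1*, against 13.6% of 27025 genes, and CCGGAAGT before 4, *Tfam*, *Tefm*, *Polg* and *Twnk*, against 3.2%. The stretches below give a match from each of the 8 members, and for *Tefm* also the match with the longer word. All 8 passed as lower at some stage, *Polg* only in E4.5 ICM, but so did *Tfb2m*, which had no match. Capitals mark the match, and each stretch reads 5′ to 3′ on the strand named.
Tfam, chr10:71238074-71238103, minus strand: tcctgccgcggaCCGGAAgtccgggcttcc
Tefm, chr11:80142199-80142228, minus strand: ctgtcgctttcgCCGGAAcccttctgccca
Tefm, chr11:80142154-80142174, minus strand: gagcacacgaaaCCGGAAgtt
Tfb1m, chr17:3557819-3557848, plus strand: tggagaaacctgCCGGAAatgacgaaactg
Polrmt, chr10:79746606-79746635, plus strand: gttctgcgactgCCGGAAgcgctcttaggg
Polg, chr7:79466294-79466323, minus strand: ggaggacctcacCCGGAAgtccctctgcac
Polg2, chr11:106779548-106779577, plus strand: tagaccacgcccCCGGAAgagcgtcacccg
Twnk, chr19:45006437-45006466, minus strand: acaaccCCGGAACCGGAAgtcaccggttag
Ssbp1, chr6:40471409-40471438, plus strand: gggctccgtgcgCCGGAAgcgagccgctgg
In *Twnk* the word stood in direct repeat, upstream of the second of its RefSeq starts. The matches of *Tfam*, *Polg* and *Ssbp1*, and the second of *Tefm*, also lay within exons of longer GENCODE transcripts. A match describes letters only, and GABPA binding was not analysed here.

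Libraries held between 9457933 and 27660132 expected counts, with the morula libraries shallowest at 9457933 to 12382705. *Gabpa* RNA does not report on the depletion, since dTAG13 acts on the protein. It was nevertheless higher with dTAG13 in every stage's means, by a log2 fold change of 0.52 at L2C, 0.74 in morula, 0.95 in E4.5 ICM and 0.93 in 2iES cells, of which the morula value did not pass (edgeR adjusted p = 0.152). Levels are given in TPM, the share of transcripts per length scaled to a fixed total. The late two-cell markers fitted the labels, with the summed level of 5 such markers at 460 to 838 TPM in L2C libraries and at most 45.5 TPM elsewhere. E4.5 ICM replicates lay very close to each other, with a biological coefficient of variation of 0.0237 against 0.284 at L2C, so that small differences passed there. The labels call the libraries of a group replicates without saying whether they came from separate collections, and p-values measure only the spread between them.

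A gene passed at an adjusted p under 0.05 in edgeR's quasi-likelihood test across all genes of a stage, and was called when it also changed at least 2-fold with a mean of at least 1 FPKM (the depth-scaled value per length in the deposited files) in a group. At L2C, 4 of 10 members fell, *Tfam*, *Tfb2m*, *Twnk* and *Ssbp1*, and 0 rose, where 7.24% of 17421 genes tested fell and 1.32% rose. Upper-quartile scaling moved the counts over all genes from 1262 lower and 230 higher to 957 and 482, and left the same 4 members lower. Of the members, *Tfam* and *Twnk* were called, against 3.63% of genes called lower. In morula 0 members passed in either direction, against 0.205% of 13667 genes lower and 0.161% higher. In E4.5 ICM, 9 members fell and *Mgme1* rose, with 38.5% of 15840 genes lower and 38.4% higher, and *Tfam*, *Polg2* and *Ssbp1* were called, against 13.2% called lower. In 2iES cells 7 fell and 0 rose, with 28.1% of 15511 genes lower and 26.5% higher, and 5 were called, *Tfam*, *Tfb1m*, *Polg2*, *Twnk* and *Ssbp1*, against 15.6%. *Tfam*, *Twnk* and *Ssbp1* were lower at L2C, in E4.5 ICM and in 2iES cells alike. The median log2 fold change of the members was -0.48 at L2C, -0.03 in morula, -0.76 in E4.5 ICM and -1.001 in 2iES cells, where the median of all genes tested lay between -0.02 and 0.03.

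**Figure D1:**
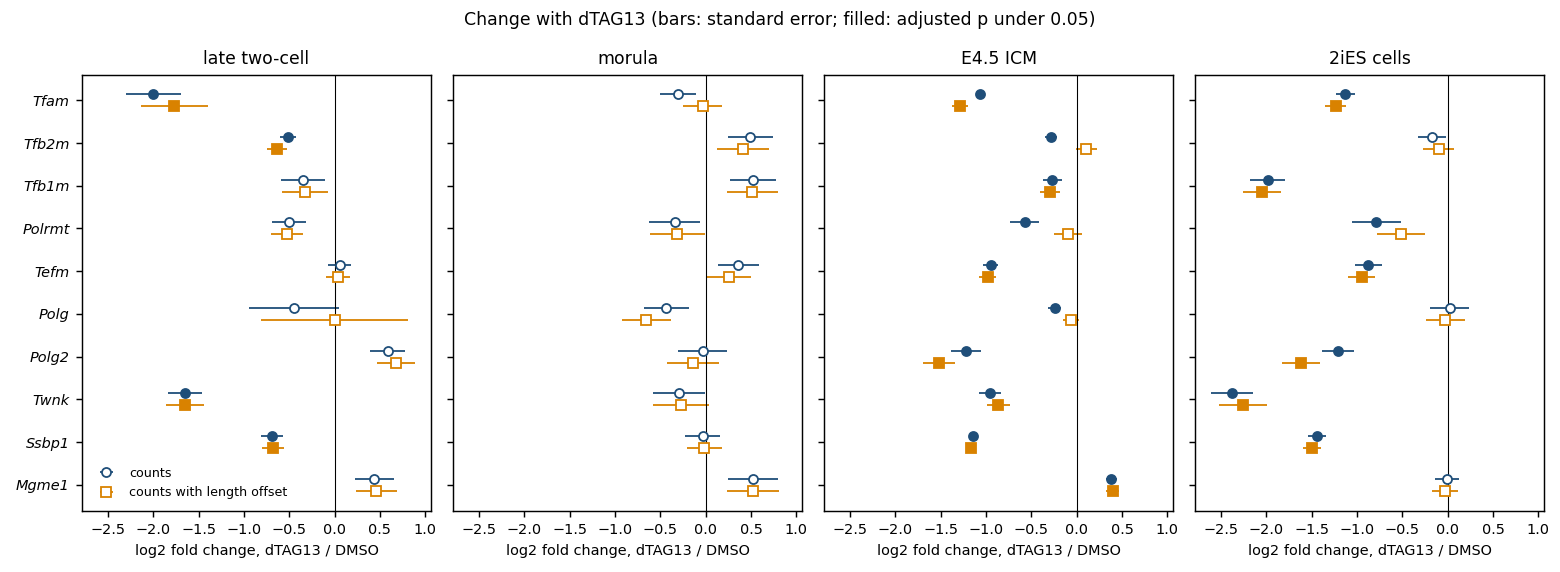
Log2 fold change (dTAG13 against DMSO, edgeR) of each of the 10 genes at the 4 stages, with the standard error as bars. The morula values scatter around 0, whereas *Tfam*, *Twnk* and *Ssbp1* lie below 0 at the other stages and *Mgme1* lies between -0.01 and 0.52.

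The number for E4.5 ICM depends on the fit, since 1 fit of all 18 libraries passed 5 members lower and 0 higher there. It also depends on gene length. RSEM's estimate of the effective transcript length moved between treatments for some members, for *Polrmt* by a log2 ratio of -0.48, and with that length as an offset 6 members remained lower, against 35.2% of genes, while *Tfb2m*, *Polrmt* and *Polg* no longer passed. In 2iES cells 6 members were lower with the offset, against 26.7%, and *Polrmt* no longer passed.

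*Tfam*, the packaging factor and transcription activator (GRCm38 chr10:71225464-71238280, minus strand), gave the lowest fold change of the list at L2C. Its DMSO libraries held 13.1, 13.8 and 10.8 TPM and its dTAG13 libraries 2.24, 2.79 and 6.74 TPM. All treated embryos lay below all controls, replicate 3 nearer to the controls than the others. The fitted level was 4.00-fold lower (log2 -2.00, SE 0.30, adjusted p = 0.00188). In morula the values were 23.1 and 23.5 TPM with DMSO and 21.4 and 23.5 TPM with dTAG13, which overlapped. In E4.5 ICM, 58.6 and 65.2 TPM stood against 23.8 and 28.9 TPM, and in 2iES cells 78.7 and 81.2 TPM against 32.3 and 33.1 TPM. Controls and treated libraries were fully apart in both. The fits gave log2 -1.06 (SE 0.05, adjusted p = 4.34e-22) in E4.5 ICM and -1.13 (SE 0.11, adjusted p = 2.83e-04) in 2iES cells, or 2.09-fold and 2.19-fold lower.

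*Tfb2m*, which opens the mitochondrial promoter for the polymerase (chr1:179528055-179546267, minus strand), stood highest at L2C. Controls there held 217, 258 and 253 TPM and treated embryos 170, 141 and 182 TPM. The ranges did not overlap, and the fit gave log2 -0.51 (SE 0.09, adjusted p = 0.00476). From morula on its level was 34.6 TPM or less in every library. In morula the controls held 15.9 and 26.8 TPM and the treated embryos 34.6 and 21.9 TPM, with overlap and no pass (adjusted p = 0.397). In E4.5 ICM the levels per length were 21.1 and 18.4 TPM against 19.6 and 24.6 TPM and overlapped, whereas the count fit gave log2 -0.28 (SE 0.07, adjusted p = 2.90e-04), which turned to 0.11 with the length offset (adjusted p = 0.44). Of the 31-base words in its exons, 36.4% occur in other genes, 35.2% in the pseudogene *Gm1818*, so that its counts are uncertain. In 2iES cells, 20.4 and 19.4 TPM stood against 20.2 and 15.6 TPM (log2 -0.17, adjusted p = 0.372).

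*Polrmt*, the mitochondrial RNA polymerase (chr10:79736123-79746581, minus strand), held 36.8, 34.7 and 35.8 TPM in L2C controls and 28.5, 23.5 and 26.0 TPM after dTAG13. The ranges were apart, but the fit did not pass (log2 -0.50, adjusted p = 0.145). Morula controls gave 38.2 and 24.7 TPM and treated embryos 26.6 and 23.6 TPM, with the 2 groups overlapping. In E4.5 ICM, 10.6 and 11.3 TPM stood beside 11.3 and 10.0 TPM, and although the count fit gave log2 -0.58 (SE 0.15, adjusted p = 0.0011), the change was -0.10 with the length offset (adjusted p = 0.602). In 2iES cells controls held 8.61 and 6.70 TPM and treated cells 4.91 and 5.41 TPM (log2 -0.79, SE 0.27, adjusted p = 0.0435). It did not pass with the length offset (log2 -0.52, adjusted p = 0.142), in DESeq2 (log2 -0.85, adjusted p = 0.0937) or in 3 of the 4 fits without a library.

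*Tefm*, the elongation factor (chr11:80136678-80142175, minus strand), fell in E4.5 ICM and 2iES cells. L2C embryos held 64.7, 61.2 and 58.8 TPM with DMSO and 61.1, 72.3 and 64.1 TPM with dTAG13, which overlapped (log2 0.05, adjusted p = 0.862). The morula values, 26.99 and 26.8 TPM against 26.8 and 36.3 TPM, overlapped too. In E4.5 ICM the 29.2 and 30.4 TPM of controls stood against 16.2 and 15.2 TPM, and in 2iES cells 47.3 and 52.5 TPM against 24.1 and 25.7 TPM. Neither pair of groups overlapped. The fits gave log2 -0.95 (SE 0.08, adjusted p = 5.33e-13) and -0.87 (SE 0.14, adjusted p = 0.00262), just short of 2-fold.

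*Tfb1m*, the rRNA methyltransferase (chr17:3519256-3557781, minus strand), fell most in 2iES cells. Controls there held 20.3 and 16.7 TPM and treated cells 4.83 and 3.72 TPM. The groups were far apart, at 3.95-fold lower (log2 -1.98, SE 0.19, adjusted p = 3.09e-04). In E4.5 ICM, 12.5 and 13.5 TPM stood against 11.2 and 10.7 TPM (log2 -0.27, SE 0.10, adjusted p = 0.017), a small difference that no longer passed without either treated library or in DESeq2 (log2 -0.29, adjusted p = 0.0743). At L2C, with 5.19, 4.93 and 7.37 TPM against 5.11, 4.14 and 5.33 TPM, the groups overlapped (adjusted p = 0.481). Morula controls lay lower than treated embryos, at 7.32 and 8.79 TPM against 11.4 and 11.4 TPM, without passing (log2 0.52, adjusted p = 0.397).

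**Figure D2:**
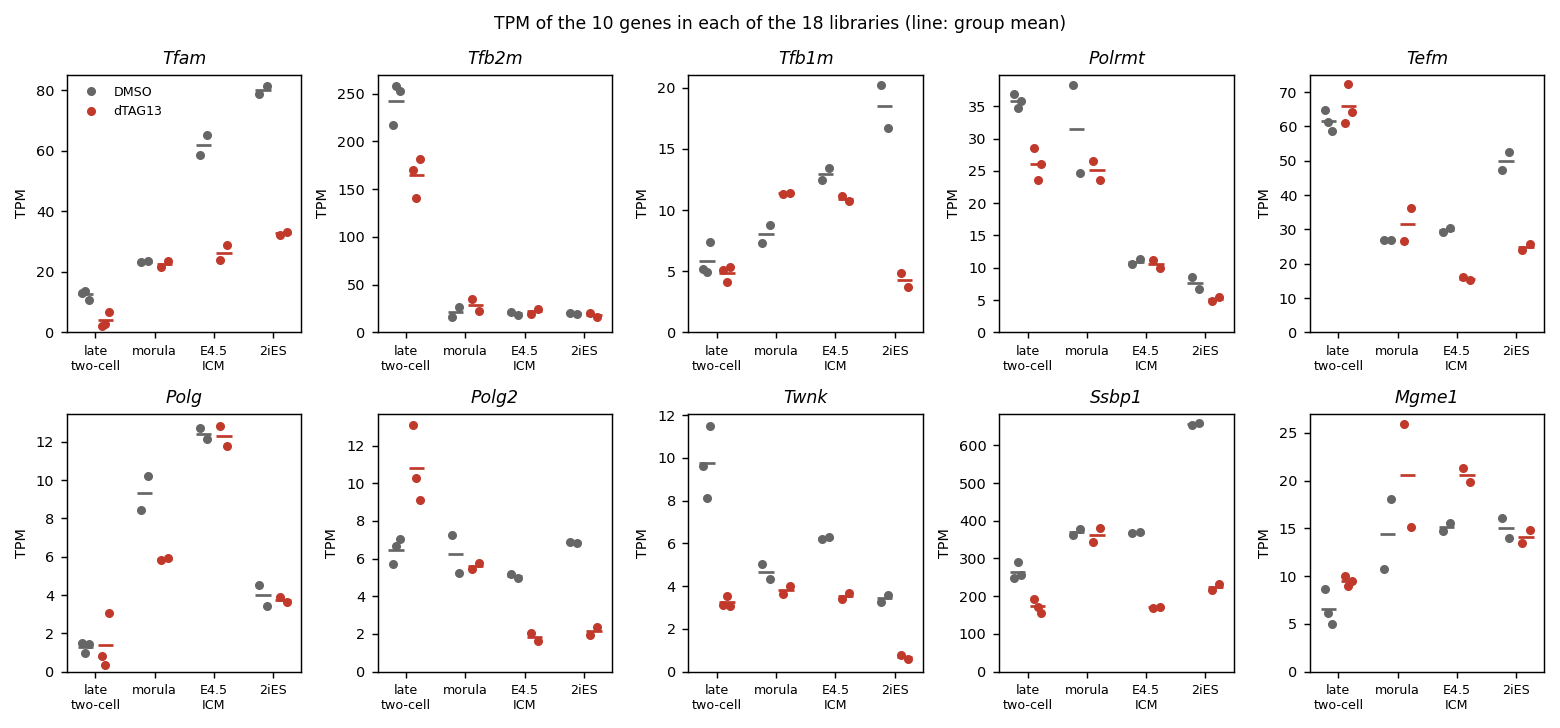
Level of each of the 10 genes in every library (points, TPM) by stage and treatment. *Tfb2m* stands at 141 to 258 TPM at L2C and at 34.6 TPM or less later, and *Ssbp1* is the highest member in most libraries.

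Among the replication genes, *Twnk*, the helicase (chr19:45005663-45012762, plus strand), fell at L2C, in E4.5 ICM and in 2iES cells. L2C controls held 9.62, 8.13 and 11.5 TPM and treated embryos 3.11, 3.53 and 3.08 TPM. The 3 treated libraries lay close together, 3.14-fold below the controls (log2 -1.65, SE 0.19, adjusted p = 3.11e-04). Morula embryos gave 5.04 and 4.33 TPM against 3.63 and 4.01 TPM, apart by little and without passing (log2 -0.29, adjusted p = 0.698). In E4.5 ICM, 6.19 and 6.28 TPM stood against 3.42 and 3.68 TPM (log2 -0.96, SE 0.12, adjusted p = 1.10e-08). In 2iES cells the controls' 3.26 and 3.61 TPM, from 245 and 262 counts, stood against 0.80 and 0.59 TPM, from 52 and 31 counts. This was the largest change of any member at any stage, 5.19-fold lower (log2 -2.38, SE 0.23, adjusted p = 3.24e-04). The kit did not keep strand, and 12.6% of the exonic bases of *Twnk* overlap *Mrpl43* on the opposite strand, so that part of its counts may belong to that gene.

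*Ssbp1*, which coats single-stranded mitochondrial DNA (chr6:40471352-40484700, plus strand), was the most abundant member per length in the controls of each stage. At L2C its controls held 248, 290 and 257 TPM and its treated embryos 193, 172 and 154 TPM. The groups did not overlap (log2 -0.69, SE 0.12, adjusted p = 0.00404). Morula values of 362 and 379 TPM against 343 and 382 TPM overlapped (log2 -0.03, adjusted p = 0.959). In E4.5 ICM, 366 and 371 TPM stood against 170 and 172 TPM, and in 2iES cells 653 and 658 TPM against 215 and 234 TPM. Replicates differed by little beside those gaps, which the fits put at 2.21-fold (log2 -1.15, SE 0.03, adjusted p = 1.34e-28) and 2.72-fold (log2 -1.44, SE 0.10, adjusted p = 1.05e-04).

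The polymerase subunits gave different values. *Polg2*, the accessory subunit (chr11:106768253-106779537, minus strand), held 5.19 and 4.96 TPM in E4.5 ICM controls and 2.04 and 1.64 TPM after dTAG13. In 2iES cells it held 6.90 and 6.84 TPM against 1.97 and 2.35 TPM. Both contrasts were free of overlap, at log2 -1.22 (SE 0.17, adjusted p = 4.41e-08) and -1.21 (SE 0.18, adjusted p = 0.00164). At L2C the direction was the opposite, with 5.70, 6.67 and 7.06 TPM in controls and 13.1, 10.3 and 9.10 TPM in treated embryos. All treated libraries were higher, without passing in edgeR (log2 0.59, adjusted p = 0.101), though DESeq2 gave an adjusted p of 0.0471. Morula levels, 7.27 and 5.24 TPM against 5.44 and 5.78 TPM, overlapped.

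*Polg*, the catalytic subunit (chr7:79446231-79466362, minus strand), gave E4.5 ICM levels of 12.7 and 12.1 TPM with DMSO and 12.8 and 11.8 TPM with dTAG13, which overlapped. The count fit there gave log2 -0.24 (SE 0.08, adjusted p = 0.00393), and -0.07 with the length offset (adjusted p = 0.51). It did not pass elsewhere. Its levels were 4.52 and 3.44 TPM against 3.89 and 3.62 TPM in 2iES cells (log2 0.02, adjusted p = 0.944) and 8.45 and 10.2 TPM against 5.83 and 5.92 TPM in morula (log2 -0.43, adjusted p = 0.467). At L2C it lay between 0.36 and 3.04 TPM, with the widest spread among treated libraries. Of its exonic bases, 8.57% overlap *Fanci* on the opposite strand.

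*Mgme1*, the exonuclease (chr2:144270663-144281227, plus strand), was the only member that passed as higher at any stage. E4.5 ICM controls held 14.7 and 15.6 TPM and treated libraries 21.3 and 19.9 TPM (log2 0.38, SE 0.06, adjusted p = 8.88e-07). *Mgme1* did not pass there in 1 fit of all 18 libraries or in the test against a fold change of 1.5. It was above every control at L2C too, at 10.0, 8.93 and 9.51 TPM against 8.69, 6.14 and 4.97 TPM, without passing (log2 0.44, adjusted p = 0.275). Morula levels of 10.7 and 18.03 TPM against 26.0 and 15.1 TPM overlapped, as did those of 2iES cells, 16.1 and 14.0 TPM against 13.5 and 14.9 TPM (log2 -0.01, adjusted p = 0.962).

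In morula the members ranged from log2 -0.43 for *Polg* to 0.52 for *Mgme1*, with standard errors of 0.19 to 0.29. No member had an unadjusted p under 0.05 in edgeR, where 1854 of all genes did, and DESeq2 passed 0 members. In data simulated on these libraries the test recovered 72.2% of genes changed at least 2-fold and 1.49% of those changed 1.5-fold, so that most smaller changes were not detectable with these libraries.

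Differences of the dTAG13 effect between stages were tested in a single fit of the 18 libraries. Neighbouring comparisons share libraries and are given side by side. From L2C to morula the effect was higher for 4 members, *Tfam* by 1.79, *Twnk* by 1.45, *Tfb2m* by 1.10 and *Ssbp1* by 0.75 on the log2 scale, against 5.79% of 21915 genes. From morula to E4.5 ICM it was lower for 4, *Tefm* (-1.37), *Polg2* (-1.25), *Ssbp1* (-1.18) and *Tfb2m* (-0.84), against 10.6% of genes, but leaving out any E4.5 ICM library left 2. With the length offset the *Tfb2m* difference did not pass and that of *Tfam* did. From L2C to E4.5 ICM it was lower for *Polg2* (-1.78) and *Tefm* (-0.98), against 9.87% of genes, and higher for *Tfam* (0.97, adjusted p = 0.037), against 10.4%. The *Tfam* difference did not pass in 10 of the fits without a library, nor with the length offset (0.51), the replicate block (1.03) or DESeq2 size factors (0.90). Between E4.5 ICM and 2iES cells it was lower in 2iES cells for *Tfb1m* (-1.67) and *Twnk* (-1.37), against 7.42% of genes. Without the second treated 2iES library the *Twnk* difference was -1.16 and did not pass (adjusted p = 0.056).

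Markers of other cell types moved with treatment in E4.5 ICM. The summed level of 7 trophectoderm markers was 66.7 to 72.7 TPM in controls and 776.1 to 776.5 TPM after dTAG13, and all 7 rose. That of 7 primitive endoderm markers was 375 to 377 TPM against 754 to 757 TPM, but the list was split, with 4 higher, *Sox17* and *Sox7* lower and 1 not passing, and *Dab2* alone went from 135 to 141 TPM in controls to 444 to 448 TPM. The sum of 8 epiblast markers was 816 to 836 TPM against 484 to 492 TPM, with all 8 lower. No marker of the 3 lists was at 0 in any of these libraries. Their part in the members' changes was not tested. From such bulk RNA alone, fewer cells of a type and less RNA per cell cannot be told apart. According to the paper, these ICM cells were taken at the mid-blastocyst stage, when epiblast cell number did not yet differ between DMSO and dTAG13. In 2iES cells the trophectoderm sum was 107 to 138 TPM against 125 to 131 TPM and the epiblast sum 538 to 649 TPM against 401 to 440 TPM, with *Pou5f1* and *Nanog* lower, *Klf4* higher and the other 5 not passing, while the primitive endoderm sum was at most 4.31 TPM. The 7 members that passed as lower in 2iES cells, *Tfam*, *Tfb1m*, *Polrmt*, *Tefm*, *Polg2*, *Twnk* and *Ssbp1*, also passed as lower in E4.5 ICM. What the marker shifts contributed at either stage was not tested. At L2C the sum of 5 oocyte markers was 1355 to 1373 TPM in controls and 1711 to 1975 TPM after dTAG13, with 1 passing as higher and 4 not passing.

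The members' levels in controls changed over development in different directions. The sources used here give no library batches, and any batch that goes with stage cannot be told apart from it. *Tfam* rose from 12.6 ± 1.58 TPM (SD, n = 3) at L2C through 23.3 ± 0.28 (n = 2) in morula and 61.9 ± 4.69 in E4.5 ICM to 79.9 ± 1.73 in 2iES cells, and each step passed in edgeR (adjusted p of 3.88e-06, 0.0317 and 0.0157). *Tfb2m* went from 243 ± 22.2 TPM at L2C to 21.4 ± 7.70 in morula (log2 -3.16, SE 0.18, adjusted p = 5.33e-11) and then lay at 19.8 ± 1.90 and 19.9 ± 0.69 TPM, with no later step passing. *Polg* rose from 1.31 ± 0.28 to 9.34 ± 1.26 TPM (log2 2.76, SE 0.36, adjusted p = 2.54e-06), stood at 12.4 ± 0.39 in E4.5 ICM and fell to 3.98 ± 0.76 TPM in 2iES cells (log2 -1.54, SE 0.38, adjusted p = 0.00342).

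Counted over the list, morula embryos were higher than L2C embryos for 6 members and lower for 3, *Tfb2m*, *Tefm* and *Twnk*, against 29.7% of genes higher and 36.0% lower. E4.5 ICM was higher than morula for *Tfam*, against 23.5% of genes, and lower for *Polrmt*, *Polg2* and *Ssbp1*, against 20.3%. The 2iES cells were higher than E4.5 ICM for 6 members, against 21.3%, and lower for *Polg*, against 19.8%. *Polrmt* fell from 31.5 ± 9.57 TPM in morula to 10.9 ± 0.54 TPM in E4.5 ICM (log2 -1.07, adjusted p = 0.00309). Several of these later steps did not hold under other settings, and the *Tfam* step from morula to E4.5 ICM was lost without any single one of 9 libraries.

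By mean level per length in DMSO controls, *Ssbp1* was first at all stages and *Tefm* held rank 3. At L2C *Ssbp1*, at 265 ± 22.3 TPM, and *Tfb2m* overlapped, and *Tefm* at 61.5 ± 2.96 TPM lay clearly below both. In 2iES cells the order began with *Ssbp1* (656 ± 3.74 TPM), *Tfam* and *Tefm* (49.9 ± 3.65 TPM), which did not overlap, whereas *Tfb2m* and *Tfb1m* (18.5 ± 2.51 TPM) overlapped. The last place was held by *Polg* at L2C, *Twnk* in morula and 2iES cells, and *Polg2* in E4.5 ICM.

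Over the 18 libraries the genes whose log2(TPM + 1) was most like that of *Tfam*, among 8610 with a mean of at least 5 TPM, were *Myl12a* (Pearson's r = 0.974), *Myl12b* (0.971) and *Manbal* (0.970). Among members, the closest pairs were *Tefm* and *Polg2* (0.831), *Tfb2m* and *Tefm* (0.770), *Polg* and *Mgme1* (0.746) and *Tfam* and *Tfb1m* (0.713). These values describe libraries that share stages and treatments.

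Genes that act beside the members were counted in fixed lists. Of 17 nucleoid, termination and replication accessory genes, 1 fell at L2C, near the 7.24% of all genes that did. It was the termination-family gene *Mterf4*, which went from 19.8 ± 1.56 to 7.70 ± 0.42 TPM (n = 3; log2 -1.39, adjusted p = 6.25e-04). In E4.5 ICM 11 fell and 3 rose, where 38.5% of all genes fell and 38.4% rose, and in 2iES cells 8 fell and 1 rose, where 28.1% and 26.5% did. *Mpv17*, an inner membrane protein needed to maintain mitochondrial DNA, fell from 65.4 and 66.9 to 14.3 and 16.4 TPM in E4.5 ICM (log2 -2.29) and from 51.4 and 46.0 to 8.36 and 7.51 TPM in 2iES cells (log2 -2.66). *Primpol*, a primase, fell at log2 -2.38 and -2.07 in these stages, and *Fen1*, a flap nuclease, at -1.27 in 2iES cells, while *Exog*, a nuclease, rose at 1.37 in E4.5 ICM. The list medians were -0.16, -0.51 and -0.43 at L2C, in E4.5 ICM and in 2iES cells.

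Of 11 genes that supply nucleotides for mitochondrial DNA, 0 passed at L2C in edgeR (1 lower at an unadjusted p under 0.05, and 1 lower in DESeq2), 3 fell and 5 rose in E4.5 ICM, and 4 fell and 1 rose in 2iES cells. The E4.5 ICM counts are near the shares of all genes, 38.5% lower and 38.4% higher, and in 2iES cells those shares were 28.1% and 26.5%. *Tk2*, the mitochondrial thymidine kinase, fell from 4.62 and 5.15 to 0.77 and 0.60 TPM in E4.5 ICM (log2 -3.06, SE 0.21, adjusted p = 7.01e-16) and from 5.52 and 4.24 to 0.76 and 0.41 TPM in 2iES cells (log2 -3.32, SE 0.30, adjusted p = 2.40e-04). *Samhd1*, which degrades deoxynucleotides, rose in E4.5 ICM (log2 1.14), and *Slc25a36*, a pyrimidine nucleotide carrier, in 2iES cells (log2 1.70). The medians of this list lay at 0.08 and -0.12 in the later stages.

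Of 26 genes for mitochondrial RNA processing, modification and decay, 6 fell and 0 rose at L2C, 18 fell and 4 rose in E4.5 ICM, and 15 fell and 1 rose in 2iES cells. Of all genes, 7.24%, 38.5% and 28.1% fell at these stages. *Slirp*, an RNA-binding partner of LRPPRC, went from 206, 162 and 183 TPM to 61.8, 56.2 and 79.1 TPM at L2C (log2 -1.44, SE 0.15, adjusted p = 1.35e-04) and from 642 and 607 to 217 and 212 TPM in E4.5 ICM (log2 -1.51). *Elac2*, the tRNA 3′ end nuclease, and *Ptcd2* fell at L2C as well (log2 -1.24 and -1.38). *Mrm2*, an rRNA methyltransferase, fell at log2 -2.12 in E4.5 ICM and -2.77 in 2iES cells, *Trmt10c*, a subunit of mitochondrial RNase P, at -1.64 and -1.68, and *Fastk* at -2.11 in 2iES cells. In morula 0 genes of these 3 lists passed in edgeR or DESeq2, while 3, 3 and 5 had an unadjusted p under 0.05 in edgeR.

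Nuclear regulators of mitochondrial genes, a list of 11 that includes *Gabpa*, gave 2 higher of 10 tested at L2C, where 1.32% of all genes rose, and 1 of 10 in morula, where 0.161% did. In E4.5 ICM 9 of 10 rose and 1 fell, against 38.4% of all genes higher, and in 2iES cells 5 of 9 rose and 1 fell, against 26.5%. *Gabpb1*, the partner subunit of GABPA, was the gene that passed in morula, at 19.0 and 29.7 TPM against 59.6 and 56.7 TPM (log2 1.28, SE 0.23, adjusted p = 0.0239). It rose in E4.5 ICM (log2 1.33) and in 2iES cells (log2 2.11), where *Sp1* and *Gabpb2* rose too (log2 1.17 and 1.16).

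**Figure D3:**
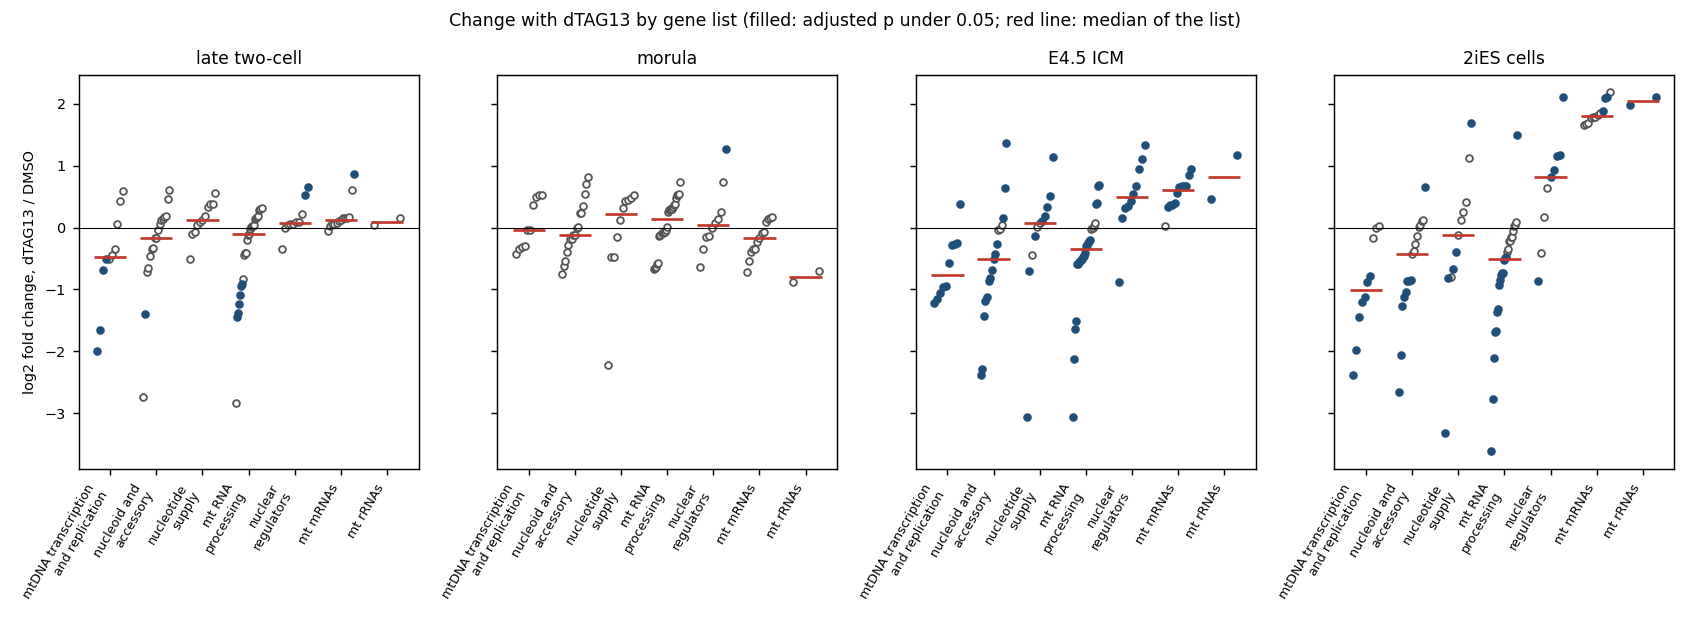
Log2 fold changes (dTAG13 against DMSO) of the genes of each fixed list by stage. Each point is a gene. In E4.5 ICM and 2iES cells the medians of the members and the RNA processing list lie below those of the mitochondrially encoded RNAs. Single genes of these lists overlap in E4.5 ICM.

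No mitochondrially encoded mRNA or rRNA passed as lower at any stage in edgeR. The 13 mitochondrial mRNAs took 8.14, 7.79 and 6.89% of the counts in L2C controls and 8.23, 9.18 and 7.80% after dTAG13, with overlap (difference 0.80 percentage points, two-sided exact permutation p = 0.2, smallest possible 0.1). That difference ranged from 0.41 without treated replicate 2 to 1.10 without treated replicate 3. The test was unpaired, and each treated L2C library lay above the control of the same number. Morula libraries gave 4.66 and 4.46% against 3.62 and 4.27%, a difference of -0.61, which was -0.29 without treated replicate 1 and -0.94 without treated replicate 2. In E4.5 ICM the share was 3.55 and 3.44% in controls and 5.28 and 5.21% after dTAG13, a difference of 1.75. In 2iES cells the controls stood at 0.295 and 1.92% and the treated cells at 4.42 and 3.85%, a difference of 3.02, or 2.21 without the first control, which stood apart. With 2 libraries a group the exact permutation p cannot go below 0.3333, which was its value in the last 3 stages.

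By gene, 11 of 12 mitochondrial mRNAs tested rose in E4.5 ICM, against 38.4% of all genes, with a median log2 fold change of 0.61. Both rRNAs rose too, *mt-Rnr2* from 1816 and 1820 TPM to 4232 and 4260 TPM (log2 1.18). In 2iES cells 3 of 12 passed as higher in edgeR, near the 26.5% of all genes that did, and 1 passed in DESeq2. The 3 were *mt-Co1* (log2 2.11), *mt-Nd4* (2.10) and *mt-Nd5* (1.88), with a median over the list of 1.81. Without the first control 12 passed with a median of 1.002. At L2C, where *Tfam* was lowest relative to its controls, only *mt-Nd4l* of 13 passed, as higher, against 1.32% of all genes. The median there was 0.13. In morula 0 passed, against 0.205% of all genes lower and 0.161% higher. There 1 mRNA and both rRNAs were lower at an unadjusted p under 0.05 in edgeR, with 0 passing in DESeq2.

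**Figure D4:**
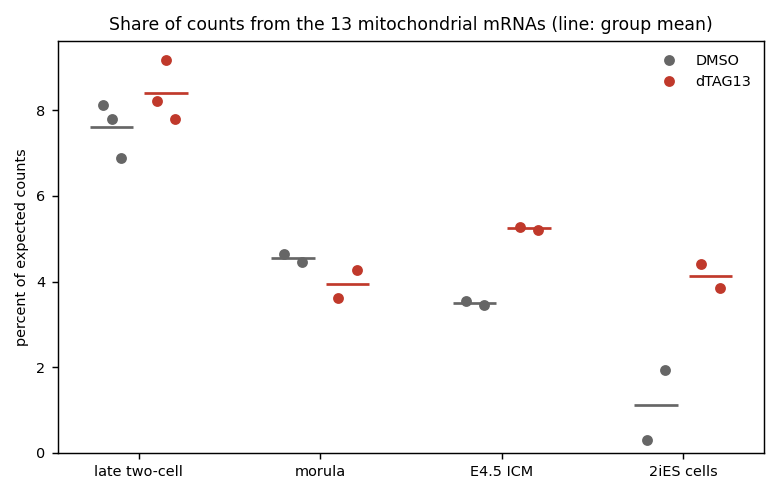
Percent of expected counts assigned to the 13 mitochondrial mRNAs in each library (points), with group means as lines. Treated libraries lie above controls in E4.5 ICM and 2iES cells, groups overlap at L2C, and the first 2iES control is the lowest of all at 0.295%.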

How the data were processed

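Of the series' samples, the 18 RNA libraries were analysed, prepared with SMART-Seq v4 and Nextera XT, which do not keep strand. CUT&RUN and ATAC libraries were not analysed here. The authors aligned reads to GRCm38 with STAR and quantified genes with RSEM, and the submitters' notes name Trimmomatic 0.39. The annotation version is not given in the sources used here. The deposited files give, per gene, RSEM's expected count, TPM and FPKM. TPM and FPKM are normalized by the authors for length and depth, and expected counts are not normalized. Gene names came from GENCODE M21 on GRCm38, which matched 55144 of 55385 identifiers.

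Expected counts were rounded and tested per stage with edgeR 4.0.16 (R 4.3.3) by glmQLFit and glmQLFTest after TMM scaling, keeping genes that reached 10 counts in enough libraries to fill the smaller group. Benjamini-Hochberg adjustment ran over all genes tested, and SE is that of the log2 fold change. Differences of effects between stages and DMSO levels came from 1 fit of 18 libraries. Groups were taken from the labels. DESeq2 1.42.0, other scalings, no count filter, a replicate block, tests against a fold change of 1.5 and fits without each library were alternatives. The effective length as an offset and a crossed block were added after seeing the data. The titles number the libraries without saying that equal numbers mark pairs. In L2C, deviations from group means of same-numbered libraries correlated at 0.101, 0.148 and 0.207 over 8237 genes. Differently numbered L2C libraries gave -0.1635 to 0.0196. The main fits did not use the numbers, and the replicate block did. The edgeR script was tested on simulated counts.

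The members, lists and tests were chosen with earlier results of these data known. Named were all members, *Gabpa*, and from each list and stage at most 3 called genes of largest change with a mean of at least 5 FPKM. RefSeq sequences and starts were those of GRCm38.p6. Counting error falls with depth, which was lowest in morula. Scripts used pandas 2.3.3 and scipy 1.17.1.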

Additional observations from a re-analysis of the deposited data

Results flagged for a closer look

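The dTAG13 effect differed between stages for 13 pairs of member and stages, by an edgeR test of the difference itself in the fit of all 18 libraries. Morula minus L2C differed by a log2 of 1.79 for *Tfam* (SE 0.32, adjusted p = 0.00165), 1.10 for *Tfb2m* (SE 0.23, adjusted p = 0.0063), 1.45 for *Twnk* (SE 0.30, adjusted p = 0.00533) and 0.75 for *Ssbp1* (SE 0.17, adjusted p = 0.00936). E4.5 ICM minus morula differed by -0.84 for *Tfb2m* (SE 0.26, adjusted p = 0.0322), -1.37 for *Tefm* (SE 0.23, adjusted p = 6.16e-04), -1.25 for *Polg2* (SE 0.33, adjusted p = 0.0156) and -1.18 for *Ssbp1* (SE 0.18, adjusted p = 2.46e-04). E4.5 ICM minus L2C differed by 0.97 for *Tfam* (SE 0.31, adjusted p = 0.037), -0.98 for *Tefm* (SE 0.21, adjusted p = 0.00328) and -1.78 for *Polg2* (SE 0.30, adjusted p = 5.22e-04). The 2iES cells minus E4.5 ICM differed by -1.67 for *Tfb1m* (SE 0.32, adjusted p = 0.00174) and -1.37 for *Twnk* (SE 0.34, adjusted p = 0.00875). Treatment windows differ between the stages, as does the dose between E4.5 ICM and 2iES cells, and these cannot be told apart from stage.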

How the results depend on the processing

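*Tfam*, *Twnk* and *Ssbp1* kept their lower direction at L2C, in E4.5 ICM and in 2iES cells under all alternatives run, and the adjusted p passed in each that gave a test, except for *Ssbp1* at L2C in the test against a fold change of 1.5. Over the counts of members and the mitochondrial mRNA shares, 493 values under alternatives stayed within 1.5 times of the reported count, or kept the sign of the reported share, and 42 did not. Of the values for single members, 1271 stayed on their side of the threshold in the same direction or, with no test, within the replicate spread, 114 no longer passed, 1 newly passed, 22 turned in direction and 14 moved by more than the replicate spread. At L2C, DESeq2 passed 1 member as higher, and the test against a fold change of 1.5 left 2 lower. In E4.5 ICM, 1 fit of all 18 libraries passed 5 lower and 0 higher, and the test against a fold change of 1.5 passed 5 lower and 0 higher. In that test the 2-fold cut was not applied, so that all 5 counted as called. For the difference from L2C to E4.5 ICM, 0 members were higher with DESeq2 size factors, with the replicate block and with the length offset. For E4.5 ICM against morula controls, 0 were higher with DESeq2 size factors, the replicate block or DESeq2, and 1 was lower with the length offset. For 2iES against E4.5 ICM controls, library totals gave 3 lower and 3 higher, and the length offset 0 lower. The direction turned for *Polg* at L2C (2.3e-04 with the length offset), for *Polg2* (0.048) and *Ssbp1* (0.045) in morula in 1 fit of 18 libraries, for *Tfb2m* in E4.5 ICM (0.11 with the length offset, 0.16 as a ratio of mean TPM) and 2iES cells (0.0089 with upper-quartile scaling), for *Polg* in 2iES cells (-0.058 without a count filter, -0.035 in DESeq2, -0.026 with the length offset) and for *Mgme1* there (0.17 with upper-quartile scaling, 0.034 with library totals, 0.048 in 1 fit of 18 libraries). The causes were not tested.

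Without each library in turn, changes ranged from -0.038 to 0.10 for *Tefm* at L2C, -0.29 to 0.27 for *Polg2* and -0.15 to 0.10 for *Ssbp1* in morula, and -0.26 to 0.041 for *Tfb2m*, -0.11 to 0.29 for *Polg* and -0.13 to 0.13 for *Mgme1* in 2iES cells. Members lower from morula to E4.5 ICM ranged from 2 to 5, those higher from L2C to E4.5 ICM from 0 to 2, those lower from E4.5 ICM to 2iES cells from 1 to 2, and those higher in E4.5 ICM than morula controls from 0 to 1. *Polrmt* in 2iES cells ranged from -1.03 to -0.46 and passed only without DMSO replicate 2. *Polg* in E4.5 ICM did not pass without DMSO replicate 1 or dTAG13 replicate 2, nor *Tfb1m* without either dTAG13 library.

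The replicate block, in which equal numbers were taken as pairs, left 4 members lower and 2 called at L2C and changed no member's call within a stage. Between stages it ended the calls for *Tfb2m* from morula to E4.5 ICM (-0.85), *Tfam* from L2C to E4.5 ICM (1.03), and the control levels of *Tfam* (0.66) from morula to E4.5 ICM and *Mgme1* (0.64) from there to 2iES cells. In morula the correlation of same-numbered libraries was 0.0256, and the block moved all genes passing from 28 lower and 22 higher to 201 and 191, with 0 members. In E4.5 ICM the correlation was -0.00772. In 2iES cells it was -0.25, and both the block and the crossed block gave 7 lower and 5 called. Upper-quartile scaling raised the median change of all genes from 0.02 to 0.14 at L2C, from 0.01 to 0.11 in E4.5 ICM and from 0.03 to 0.21 in 2iES cells. In simulated counts the test recovered 73.7% of genes changed at least 2-fold at L2C, 72.2% in morula, 98.5% in E4.5 ICM and 85.7% in 2iES cells, and of those changed 1.5-fold 26.9%, 1.49%, 79.1% and 26.9%. Morula libraries were the shallowest.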
